A study of Mus musculus with 3 samples.

Results

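Bone morphogenetic protein (BMP) signals and their immediate target genes were followed through 3 ages of the mouse ovary. The set has 10 genes, taken by symbol from the 53465 genes of the deposited tables: the target genes Id1, Id2, Id3 and Id4, the inhibitory SMADs Smad6 and Smad7, the ligands Bmp2 and Bmp4, and the secreted BMP-binding proteins Bmper and Grem1. All 10 had at least 1 unique molecular identifier (UMI, standing for 1 captured mRNA molecule) at embryonic day 16.5, and 9 had one at postnatal days 7 and 14, where Grem1 had none. Single cells came from whole ovaries of wild-type (WT) female C57BL/6 mice, and each age was 1 library. The labels name no transgene and no agent, and nothing in them other than age separates the libraries; how many animals went into each is not stated. The embryonic library is called ED16.5 here after its age label, although its title gives ED17, and the others are called PND7 and PND14.

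A BMP dimer brings together type I and type II receptor kinases at the cell surface, and the activated type I receptor phosphorylates SMAD1, SMAD5 or SMAD9, which enter the nucleus with SMAD4. The Id genes are among the best known direct targets: ID proteins have a helix-loop-helix but no DNA-binding region, so they pair with E proteins and keep them and their tissue-specific partners off DNA. SMAD6 and SMAD7 are also induced by the pathway and switch it off at the receptor, while proteins such as gremlin 1 (Grem1) hold ligands outside the cell. In the postnatal ovary, theca and other stromal cells, granulosa cells and oocytes each make members of this ligand family, and granulosa cells, the somatic cells that enclose the oocyte, respond to them.

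The genes lie on several chromosomes of the GRCm38 build. In the GENCODE M21 annotation Id1 spans chr2:152736251-152737410 (plus strand), Id2 chr12:25093799-25097140 (minus), Id3 chr4:136143497-136145755 (plus) and Id4 chr13:48261228-48266026 (plus). Smad6 spans chr9:63953076-64022059 (minus). Bmp2 spans chr2:133552159-133562885 (plus), Bmp4 chr14:46383520-46390669 (minus), Bmper chr9:23223076-23485200 (plus) and Grem1 chr2:113746164-113758646 (minus). All 10 genes, Smad7 included, are annotated as protein-coding. Id4 and Bmp4 are each overlapped by 2 genes on the opposite strand, and since the strand setting of the counting is not given in the sources used here, their counts could hold reads of those genes.

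RefSeq promoter sequences (GRCm38.p6, 250 bases before to 50 bases after the RefSeq start site) were matched for 7 of the 10 genes. The 4 below are shown because the genes moved together or apart between ages and because SMADs are known to bind short GC boxes and SMAD boxes in such regions. Each is written 5′ to 3′ on the gene's own strand, and capitals mark matches on either strand to GGCGCC (a GC box bound by SMAD1 and SMAD5), to GTCTG (a SMAD box, which reads CAGAC on the other strand) and to the palindrome GTCTAGAC. The intervals are chr12:25096043-25096342 (minus strand) for Id2, chr4:136143572-136143871 (plus) for Id3, chr9:64022010-64022309 (minus) for Smad6 and chr14:46390620-46390919 (minus) for Bmp4.
Id2: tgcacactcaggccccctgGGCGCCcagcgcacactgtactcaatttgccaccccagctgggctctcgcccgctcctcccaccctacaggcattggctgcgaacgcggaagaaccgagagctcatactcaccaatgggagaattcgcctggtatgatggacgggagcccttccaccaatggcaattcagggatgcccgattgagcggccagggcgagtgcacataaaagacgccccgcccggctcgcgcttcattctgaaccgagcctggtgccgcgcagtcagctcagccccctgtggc
Id3: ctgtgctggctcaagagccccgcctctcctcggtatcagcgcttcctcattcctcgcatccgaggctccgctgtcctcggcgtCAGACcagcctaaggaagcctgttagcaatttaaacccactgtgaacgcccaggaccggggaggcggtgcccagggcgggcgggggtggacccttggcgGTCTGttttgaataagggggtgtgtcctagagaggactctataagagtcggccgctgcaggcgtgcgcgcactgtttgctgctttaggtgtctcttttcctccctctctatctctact
Smad6: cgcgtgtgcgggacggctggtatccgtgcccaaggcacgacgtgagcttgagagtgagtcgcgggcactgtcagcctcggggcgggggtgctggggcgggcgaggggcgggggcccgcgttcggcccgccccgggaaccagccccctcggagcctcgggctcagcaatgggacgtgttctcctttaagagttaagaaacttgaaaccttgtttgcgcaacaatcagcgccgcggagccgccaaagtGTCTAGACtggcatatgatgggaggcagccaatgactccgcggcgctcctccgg
Bmp4: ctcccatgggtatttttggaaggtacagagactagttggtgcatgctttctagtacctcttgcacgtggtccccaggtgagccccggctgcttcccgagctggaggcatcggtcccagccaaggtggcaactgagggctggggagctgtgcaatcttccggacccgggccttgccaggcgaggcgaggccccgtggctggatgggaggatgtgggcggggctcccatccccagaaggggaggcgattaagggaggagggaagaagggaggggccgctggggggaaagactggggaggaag
The Id2 and Id3 windows lie inside the GENCODE spans given above, so their bases before the RefSeq start site are within the genes as GENCODE annotates them. The Id2 window held GGCGCC once, with its first base at position -231 from the RefSeq start site. The Id3 window held the SMAD box 2 times, at positions -167 and -68, and the Smad6 window held the palindrome at position -4. The Bmp4 window held none of the 3 strings. Of the matched windows not printed, that of Id4 held GGCGCC 1 time and that of Bmper held none of the strings. The window of Grem1, which was barely detected, held GGCGCC 1 time and GTCTG 2 times. Of all 32851 RefSeq promoters of the same length, 11.9% held GGCGCC, 49.6% held GTCTG and 0.213% held GTCTAGAC. A match of letters is a description of the window and not evidence of binding.

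At ED16.5, PND7 and PND14 there were 459, 510 and 585 barcodes with 8994085, 8743797 and 9065595 UMIs in all, of which 456, 509 and 583 were kept as cells. The kept cells had a median of 15090.5, 12224 and 11435 UMIs, and no barcode was shared between libraries. Cells were gated into classes by clustering and marker genes (a class is called "X-like" after the markers that named it), and the UMIs of a class were summed per library and scaled to a total of 1000000 (CPM). Brackets give exact 95% Poisson intervals of a level, and exact conditional intervals of a ratio, which cover counting error only. With 1 library an age there is no replicate check on any comparison of ages and no test was run, and age cannot be told apart from the animals or the library. Granulosa-like cells numbered 89, 88 and 92, stroma-like cells 108, 185 and 214, endothelium-like cells 19, 21 and 29, germ cell-like cells 67, 12 and 3, and erythroid-like cells 119, 12 and 9 at ED16.5, PND7 and PND14. Theca-like cells (41) were found at PND14, while PND7 and PND14 held 10 and 22 smooth muscle or pericyte-like cells. Surface epithelium-like cells numbered 15 and 12 at those ages, and neither kind formed a cluster at ED16.5. The 20 granulosa markers summed to 4277, 6810 and 10213 CPM in granulosa-like cells, with 1 marker at 0 at ED16.5 and 0 at the later ages. Different clusters held most of a class at each age: cluster 0, then 9, then 17 for granulosa-like cells, and cluster 3, then 10, then 16 for stroma-like cells, so each comparison of ages in them is also a comparison of clusters; cluster 4 held the endothelium-like cells of all 3 ages.

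Over whole libraries, the target genes Id1, Id2 and Id3 had between 802 and 3907 UMIs at every age. Id1 had 1425 UMIs at ED16.5, 802 at PND7 and 1011 at PND14. Id2 had 2646, 2735 and 2856 UMIs and Id3 had 2879, 2237 and 3907. Id4 had 76, 72 and 35 UMIs in the same order. Smad6 had 103, 37 and 39 UMIs and Smad7 320, 190 and 177, both most at ED16.5. Bmp2 had 100, 90 and 130 UMIs, whereas Bmp4 went from 17 UMIs at ED16.5 to 133 at PND7 and 220 at PND14. Bmper had 9, 31 and 15 UMIs and Grem1 2, 0 and 0. A UMI of Id1 was found in 52.2%, 44.8% and 46.5% of all kept cells, one of Id2 in 55.5%, 77.6% and 72.0%, and one of Id3 in 64.0%, 74.7% and 83.0%. Erythroid-like cells made up 26.1% of the ED16.5 cells and 2.36% and 1.54% later, and at ED16.5 they held 12 Id1, 21 Id2 and 41 Id3 UMIs, so whole-library levels also follow the makeup of the library.

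Id1, Id2 and Id3 were all lower in granulosa-like cells at PND7 than at ED16.5, and Id3 alone was higher again at PND14. Id1 had a level of 329 CPM in the embryo (304–356), of 113 CPM at PND7 (98.8–129) and of 67.8 CPM at PND14 (55.6–81.8). These intervals do not overlap, and the ratio was 2.91-fold lower at PND7 than at ED16.5 (2.49–3.41) and 1.67-fold lower at PND14 than at PND7 (1.32–2.12). Id2 stood at 381 CPM (354–410), 69.9 CPM (58.7–82.6) and 67.8 CPM (55.6–81.8), a 5.45-fold lower level at PND7 (4.54–6.59) with overlapping intervals thereafter. Id3 stood at 488 CPM (457–520), 224 CPM (204–246) and 380 CPM (350–411). Its level was 2.17-fold lower at PND7 (1.94–2.44) and then 1.69-fold higher at PND14 (1.49–1.92). The 3 paralogs therefore shared the step from the embryo to PND7, while between PND7 and PND14 Id1 was lower, Id2 within its interval and Id3 higher. Within cluster 9, which had 83 cells at PND7 and 18 at PND14, the Id1 levels of 116 CPM (101–133) and 94.4 CPM (66.1–131) overlapped, and Id3 was 210 CPM (190–233) and then 367 CPM (309–433). In cluster 17, with 5 and 74 cells, Id3 was 433 CPM (324–566) and then 384 CPM (349–420), so neither Id1 nor Id3 kept its step beyond counting error within both clusters.

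The same order of values was seen in the share of granulosa-like cells with a UMI after every cell was thinned to 5000 UMIs. The 95% intervals of these shares at PND7 and PND14 overlapped for each of Id1, Id2 and Id3. Those at ED16.5 and PND7 overlapped for Id1 and Id3 but not for Id2. Without thinning the Id3 share was lower at PND14 than at PND7. For Id1 the share was 58.4%, 39.8% and 26.1% of cells at ED16.5, PND7 and PND14 (84.3%, 71.6% and 45.7% without thinning). For Id2 it was 62.9%, 25.0% and 17.4% (84.3%, 45.5% and 40.2% without thinning), and for Id3 76.4%, 55.7% and 63.0% (94.4%, 87.5% and 84.8% without thinning). Erythroid-like cells at ED16.5, whose median depth was 14699 UMIs against 18042 in granulosa-like cells, gave thinned shares of 3.36% for Id1, 5.88% for Id2 and 10.1% for Id3. Whether erythroid-like cells make any of these mRNAs was not tested, and their shares are those of the ED16.5 library only. The granulosa-like shares were above them at every age. The thinned values rest on 5000 UMIs a cell, and 0 cells were shallower.

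**Figure D1:**
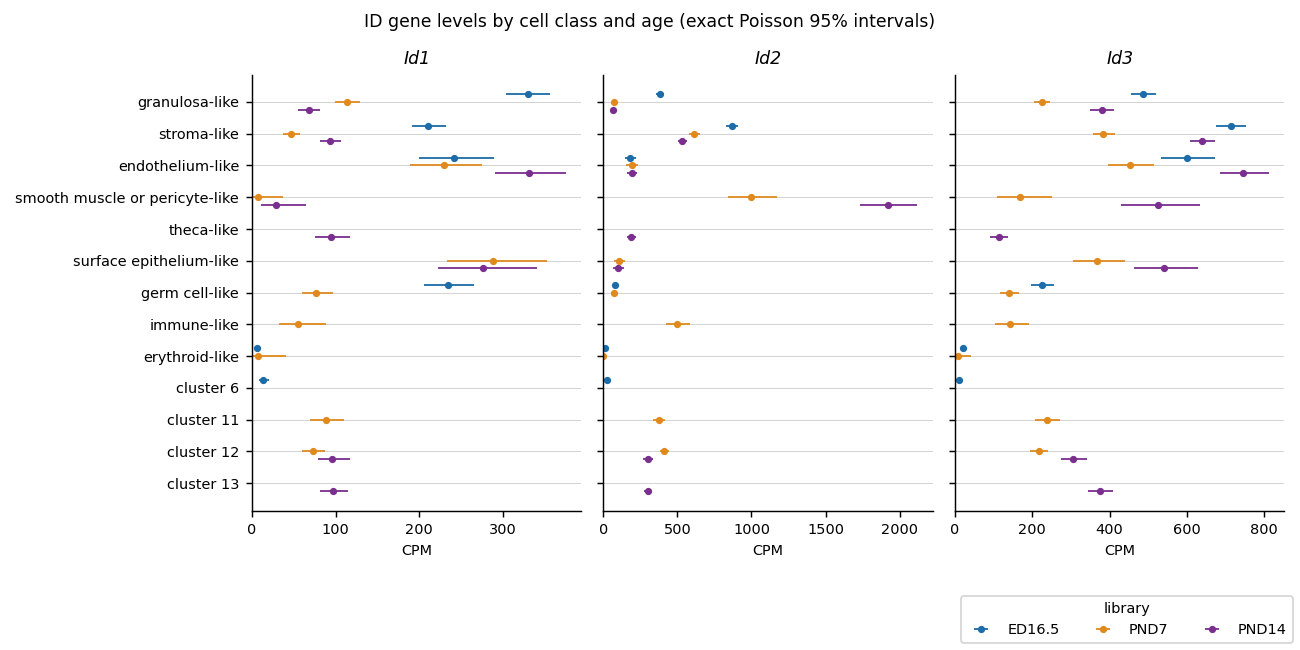
Levels of Id1, Id2 and Id3 in CPM of summed UMIs (x axis) for each cell class or unnamed cluster with at least 10 cells (y axis) in the ED16.5, PND7 and PND14 libraries; points are single libraries and bars exact Poisson 95% intervals. In granulosa-like cells all 3 genes are highest at ED16.5, and Id2 reaches its highest level in smooth muscle or pericyte-like cells at PND14 (1919 CPM).

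Stroma-like cells held most of the Id2 UMIs of the embryonic library (63.2%) and the largest share at PND7 (40.9%) and PND14 (42.5%). Id2 stood at 868 CPM at ED16.5 (827–911), 615 CPM at PND7 (580–652) and 533 CPM at PND14 (503–563), so the PND7 level was 1.41-fold lower (1.31–1.52) where granulosa-like cells were 5.45-fold lower. Id1 stood at 211 CPM (191–232), 46.2 CPM (36.9–57.2) and 93.1 CPM (81.0–106), that is 4.56-fold lower at PND7 (3.60–5.84) and then 2.01-fold higher at PND14 (1.56–2.62). Id3 stood at 713 CPM (676–752), 384 CPM (356–414) and 639 CPM (607–673). Both Id1 and Id3 were therefore lowest at PND7 in stroma-like cells, and Id2 was lower at each later age.

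In endothelium-like cells the Id1 intervals of ED16.5 and PND7 overlapped, where granulosa-like and stroma-like cells had less at PND7. Id1 stood at 241 CPM at ED16.5 (200–289), 229 CPM at PND7 (189–275) and 330 CPM at PND14 (290–375), with a PND7 to ED16.5 ratio of 0.949 (0.729–1.24) and a PND14 to PND7 ratio of 1.44 (1.15–1.81). Id2 stood at 181, 192 and 192 CPM, with overlapping intervals. Id3 stood at 600, 453 and 746 CPM, which gave a PND7 to ED16.5 ratio of 0.754 (0.631–0.898) and a PND14 to PND7 ratio of 1.65 (1.41–1.93). These values rest on 19, 21 and 29 cells, and 3 cells held 53 of the 119 Id1 UMIs at ED16.5, 59 of 116 at PND7 and 106 of 241 at PND14. Dissociation stress genes moved with age in this class: 8 of the 14 measured (Fos, Jun, Junb, Egr1, Atf3, Hspa1a, Zfp36 and Btg2) were at least 2-fold higher at PND7 than at ED16.5. Of all measured genes 4.9% were higher at this step. The part of the stress genes in the result was not tested.

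Among the other classes, smooth muscle or pericyte-like cells led for Id2 and Id4 after birth and surface epithelium-like cells for Id1 at PND7, while erythroid-like cells at ED16.5 had 6.09 CPM of Id1, 10.7 CPM of Id2 and 20.8 CPM of Id3. In smooth muscle or pericyte-like cells, named by markers of contractile cells, Id2 stood at 997 CPM at PND7 (842–1172) and 1919 CPM at PND14 (1734–2119). All 10 and all 22 of these cells held an Id2 UMI after thinning. Id2 was highest in this class at both postnatal ages, with an interval clear of the next class. Id4 was highest there too, at 115 CPM (67.2–185) and 63.8 CPM (34.0–109), but from 17 and 13 UMIs, of which 3 cells held 14 and 11. Id3 in these cells stood at 170 CPM at PND7 and 525 CPM at PND14. Surface epithelium-like cells had 288 CPM of Id1 at PND7 (233–353) and 277 CPM at PND14 (222–340), the highest and second highest level of the gene at those ages, and at PND7 and at PND14 alike this interval overlapped that of endothelium-like cells (229 and 330 CPM). Germ cell-like cells held 234 CPM of Id1 at ED16.5 (206–265) and 77.1 CPM at PND7 (60.5–97.0), in clusters led by meiotic genes such as Smc1b and Sycp1 at ED16.5 and by oocyte genes such as Zp3 and Ooep at PND7. Theca-like cells at PND14 had 189 CPM of Id2 and 113 CPM of Id3, both below stroma-like cells, and an Id1 interval of 75.8–118 CPM that overlapped that of stroma-like cells. Immune-like cells had 498 CPM of Id2 at PND7 (16 cells) and 329 CPM at PND14 (8 cells).

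The PND14 to PND7 step of Id3 recurred across classes. Of 8 classes or clusters with at least 8 cells at both ages, 7 had a ratio above 1 and 6 an interval wholly above 1, from 1.41 (1.21–1.65) in cluster 12, a mitotic cluster led by Mxd3, Pimreg and Cdkn2c, to 3.10 (1.99–5.00) in smooth muscle or pericyte-like cells. All these ratios share the same pair of libraries, so they are not independent of one another. For Id1 the same 8 ratios split: 3 had an interval above 1 and 1, that of granulosa-like cells, had one below 1. For Id2, 1 had an interval above 1 (smooth muscle or pericyte-like cells, 1.92, 1.59 to 2.34) and 3 had one below 1.

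Id4 had few UMIs in every large class. In granulosa-like cells it went from 28 UMIs (14.9 CPM) at ED16.5 to 11 (5.61 CPM) at PND7 and 2 (1.25 CPM) at PND14, and in stroma-like cells from 33 (17.1 CPM) to 21 (11.6 CPM) and 9 (3.95 CPM). The PND7 to ED16.5 ratio was 0.378 in granulosa-like cells (0.170–0.782) and 0.674 in stroma-like cells (0.371–1.20). Endothelium-like cells held 4, 4 and 5 Id4 UMIs, too few to order the ages.

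The inhibitory SMADs were highest in the embryonic library in both large somatic classes. Smad7, which blocks receptor kinases of the BMP and the TGF-β and activin branches, stood at 51.5 CPM at ED16.5 (41.7–62.8), 35.2 CPM at PND7 (27.4–44.5) and 22.0 CPM at PND14 (15.3–30.5) in granulosa-like cells. Its steps there were 1.46-fold (1.06–2.02) and 1.60-fold lower (1.05–2.48). In stroma-like cells Smad7 stood at 85.2 CPM (72.6–99.3), 23.7 CPM (17.1–31.9) and 17.6 CPM (12.6–23.9), a 3.60-fold lower level at PND7 (2.56–5.16). Smad6, which acts mainly on the BMP branch, had 44 UMIs in stroma-like cells at ED16.5 (22.9 CPM), 7 at PND7 (3.85 CPM) and 15 at PND14 (6.59 CPM), and was 5.93-fold lower at PND7 than at ED16.5 (2.65–15.6). Granulosa-like cells had 36, 16 and 8 Smad6 UMIs (19.1, 8.16 and 5.02 CPM), 2.34-fold lower at PND7 (1.27–4.52). In endothelium-like cells Smad7 stood at 66.9, 37.5 and 39.8 CPM with overlapping intervals, and Smad6 had 4, 1 and 5 UMIs. The Smad6 promoter is the one printed above with the palindromic SMAD box, and any part of that box in these levels was not tested.

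**Figure D2:**
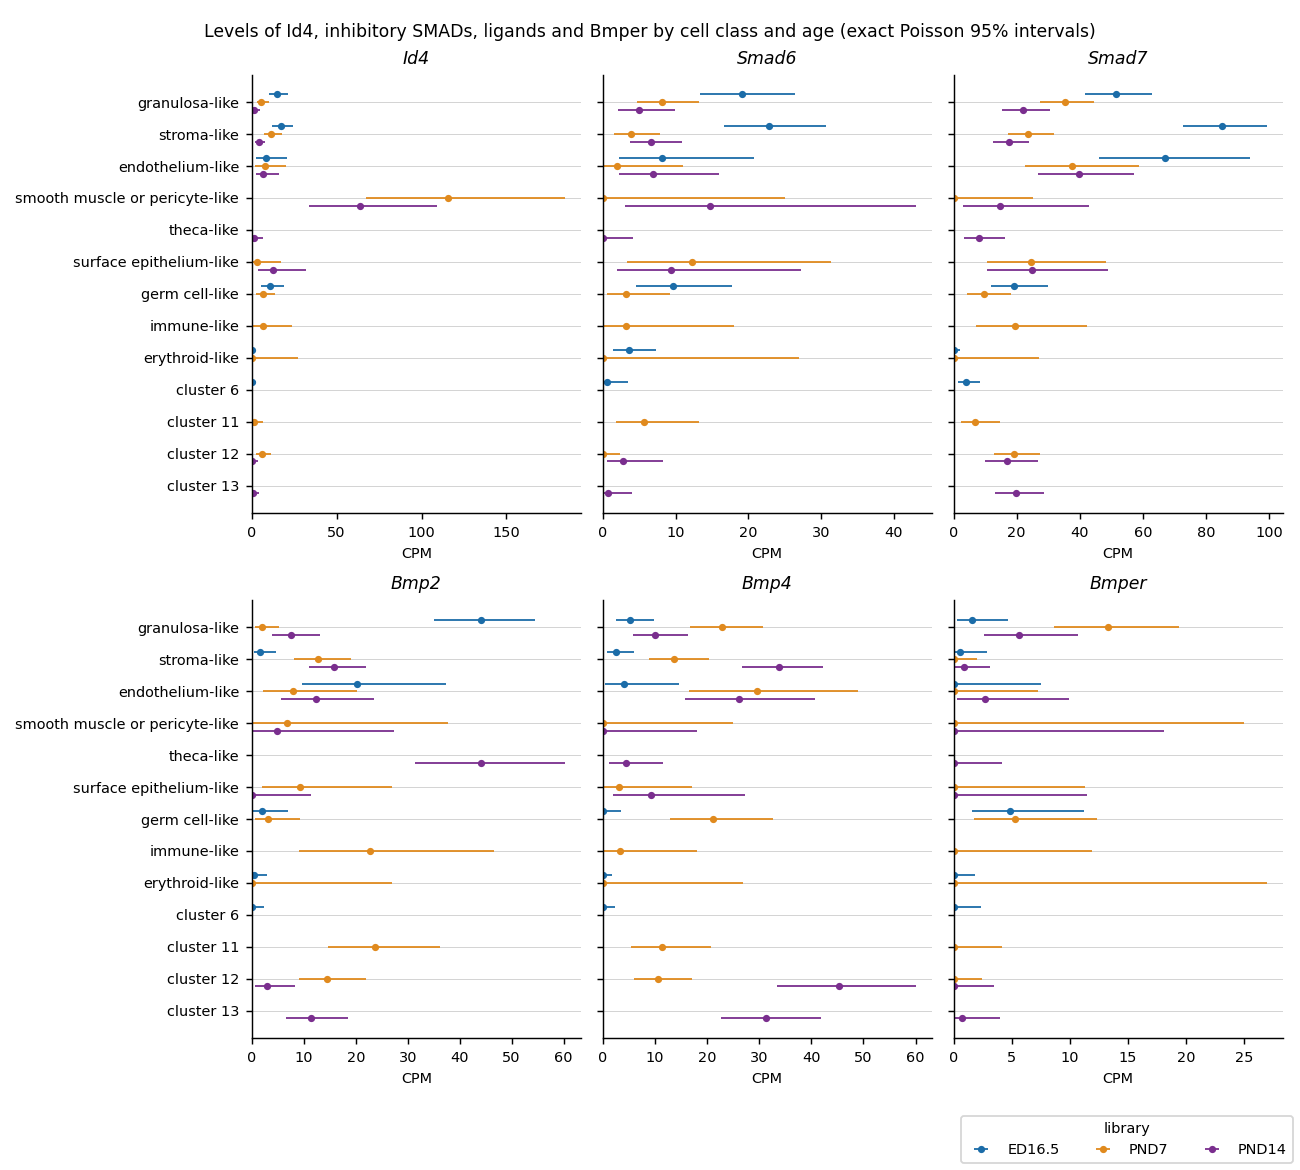
Levels in CPM (x axes, 1 scale per gene) of Id4, Smad6, Smad7, Bmp2, Bmp4 and Bmper by cell class or unnamed cluster (y axis) in the 3 libraries; points are single libraries and bars exact Poisson 95% intervals. Groups with fewer than 10 cells are not drawn. Of those drawn, Bmp2 is highest in granulosa-like cells at ED16.5 (44.0 CPM) and in theca-like cells at PND14 (44.1 CPM), and Bmper is highest in granulosa-like cells at PND7 (13.3 CPM).

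Bmp2 lay mostly in granulosa-like cells at ED16.5 and was spread over several classes after birth. At ED16.5, 83 of its 100 UMIs (83.0%) lay in granulosa-like cells, at 44.0 CPM (35.1–54.6), and 39 of these 89 cells held a UMI. That interval overlapped the one of the 19 endothelium-like cells, which had 10 UMIs (20.3 CPM, 9.73 to 37.3). At PND7 the granulosa-like cells held 4 UMIs (2.04 CPM, 0.56 to 5.22), a 21.6-fold lower level (8.12–81.1), and at PND14 they held 12 (7.53 CPM, 3.89 to 13.2). Stroma-like cells went the other way, from 3 UMIs at ED16.5 (1.56 CPM, 0.321 to 4.55) to 23 at PND7 (12.7 CPM, 8.02 to 19.0) and 36 at PND14 (15.8 CPM, 11.1 to 21.9), a PND7 to ED16.5 ratio of 8.12 (2.45–42.3). At PND7 the UMIs were also spread over cluster 11 (21 UMIs), led by Tmem100, Stc1 and Osr2, and cluster 12 (22 UMIs). At PND14 theca-like cells held the largest share, 39 of 130 UMIs (30.0%), at 44.1 CPM (31.4–60.3), above stroma-like cells with no overlap of intervals. The 8 immune-like cells at PND14 had a higher level, 107 CPM (56.9–183), from 13 UMIs that all lay in 3 cells.

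Bmp4 was scarce in the embryonic ovary and present in several somatic classes after birth. Granulosa-like cells had 10 UMIs at ED16.5 (5.31 CPM, 2.54 to 9.76), 45 at PND7 (22.9 CPM, 16.7 to 30.7) and 16 at PND14 (10.0 CPM, 5.74 to 16.3), so the level was 4.33-fold higher at PND7 (2.15–9.63) and then 2.29-fold lower (1.27–4.33). A few cells carried it: 3 cells held 22 of the 45 UMIs at PND7 and 14 of the 16 at PND14, and in cluster 17, where most PND14 granulosa-like cells lie, 74 cells held 3 (2.47 CPM, 0.51–7.23). Within cluster 9 Bmp4 was 24.5 CPM at PND7 (17.9–32.8, 83 cells) and 34.1 CPM at PND14 (18.1–58.3, 13 UMIs in 18 cells). These intervals overlapped, so the lower PND14 level was not seen within that cluster, and the part of the change of cluster was not tested. In stroma-like cells Bmp4 had 5 UMIs (2.60 CPM, 0.843 to 6.06), 25 (13.8 CPM, 8.90 to 20.3) and 77 (33.8 CPM, 26.7 to 42.2), higher at each later age by ratios of 5.30 (1.99–17.7) and 2.46 (1.55–4.03). Those 77 UMIs lay in 47 of 214 cells. Endothelium-like cells had 2, 15 and 19 UMIs, and the PND7 to ED16.5 ratio was 7.31 (1.70–65.8). Germ cell-like cells had 0 UMIs at ED16.5 among 67 cells, which allows up to 2.89 CPM, and 20 at PND7 in 9 of 12 cells, whose median depth was 81812.5 UMIs. At PND14 the level was 45.3 CPM in cluster 12 (33.4–60.1), 31.2 CPM in cluster 13 (22.7–42.0), which was led by Hhip, Enpep and Plac8, and 4.52 CPM in theca-like cells (1.23–11.6), where Bmp2 was high.

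Bmper, which encodes a secreted protein that binds BMPs and can curb or aid their action, was mostly in granulosa-like cells after birth. Granulosa-like cells held 26 of its 31 UMIs at PND7 (83.9%), in 23 of 88 cells, and 9 of 15 at PND14 (60.0%), in 9 of 92 cells. At ED16.5 they held 3 of 9, and germ cell-like cells held 5. The level was 1.59 CPM (0.328–4.65), 13.3 CPM (8.66–19.4) and 5.65 CPM (2.58–10.7), which was 8.33-fold higher at PND7 than at ED16.5 (2.55–43.0) and 2.35-fold lower at PND14 than at PND7 (1.07–5.70). Stroma-like cells held 1, 0 and 2 UMIs. Grem1 had 1 UMI each in granulosa-like and stroma-like cells at ED16.5 and 0 UMIs at PND7 and PND14, which allows up to 0.343 and 0.331 CPM over the whole library (3 UMIs), so it was not detectable at this depth after birth.

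**Figure D3:**
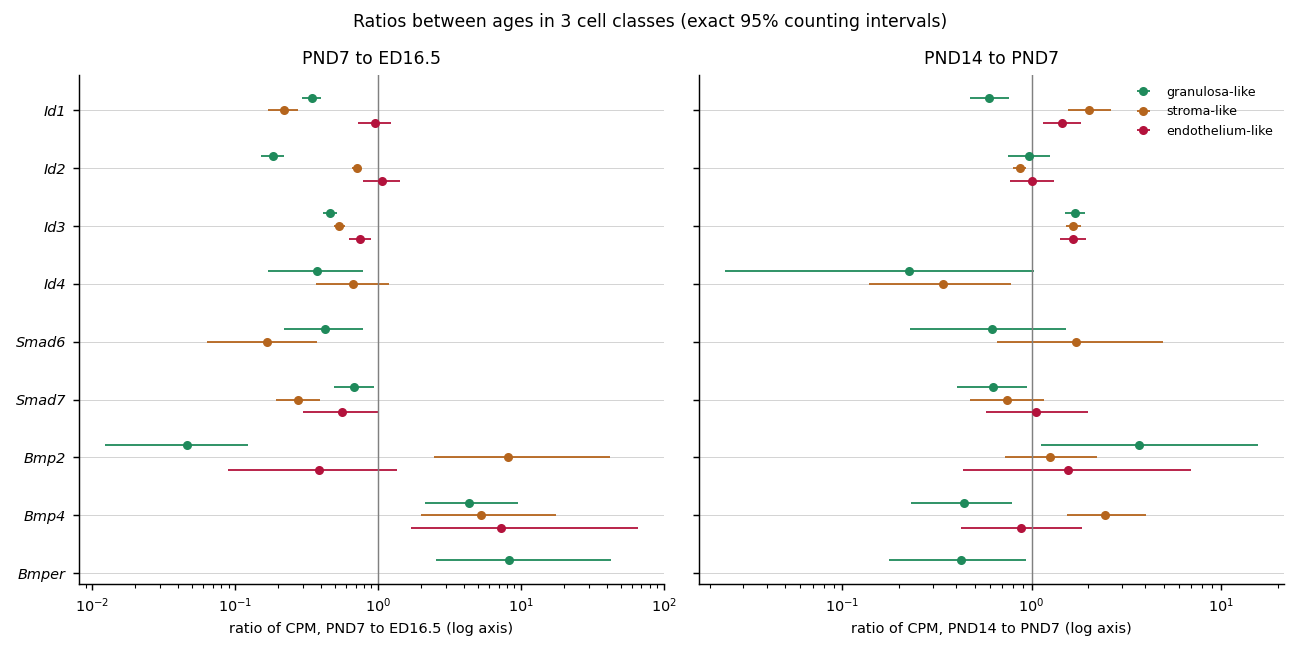
Ratio of CPM (x axes, log scale; 1 means no difference) between PND7 and ED16.5 and between PND14 and PND7 for each gene (y axis) whose UMIs in the pair of libraries summed to 10 or more, in granulosa-like, stroma-like and endothelium-like cells; bars are exact 95% counting intervals. Bmp2 in granulosa-like cells (ratio 0.0463) and in stroma-like cells (8.12) lie on opposite sides of 1, and the PND14 to PND7 ratios of Id3 lie close together at 1.69, 1.66 and 1.65.

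All members past 2-fold were found at the step from ED16.5 to PND7. A gene was measured when its UMIs in the pair of libraries summed to 10 or more. It was called when at least 2-fold apart on log2(CPM + 10), a scale that understates the change of low genes. The shares over all genes include low genes that can hardly be called on this scale. They are therefore not shares among genes at the levels of Id1, Id2 and Id3, and the members were chosen with earlier results of these data known. In granulosa-like cells 4 of 9 measured members were lower at PND7 (Id1, Id2, Id3 and Bmp2), where 4.87% of all measured genes were, and 2 were higher (Bmp4 and Bmper), where 3.17% were. The median log2 ratio of the 9 was -0.68 against -0.12 over all genes. Relative to that shift Id3 lay at -0.97, so 3 members, Id1, Id2 and Bmp2, stayed past 2-fold lower. In stroma-like cells 3 of 8 measured members were lower (Id1, Smad6 and Smad7) against 2.03% of genes and 0 were higher against 2.43%; the median was -0.68 against -0.02. Bmp2 and Bmp4 lay just short of 2-fold higher there, at 0.97 and 0.92 on that scale. In endothelium-like cells 1 of 6 measured members was higher (Bmp4) against 4.9% of genes and 0 were lower against 1.79%.

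Between PND7 and PND14, 0 of the 9, 8 and 6 measured members passed 2-fold in either direction in granulosa-like, stroma-like and endothelium-like cells. Over all genes 1.19% were higher and 1.29% lower in granulosa-like cells, 0.789% and 0.838% in stroma-like cells, and 3.09% and 1.02% in endothelium-like cells. With shares this low, a count of 0 is close to the background. The median log2 ratio of the members was -0.47 against -0.02 over all genes in granulosa-like cells, 0.22 against -0.06 in stroma-like cells and 0.19 against 0.03 in endothelium-like cells.

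Markers of other cell types moved with these steps. In granulosa-like cells the 12 surface epithelium markers summed to 1392 CPM at ED16.5, with 1 of the 12 at 0, and to 189 and 110 CPM at PND7 and PND14, with 4 and 2 at 0. Without the cells that held a UMI of Upk3b or Upk1b, markers of the surface epithelium, 70 and 85 granulosa-like cells remained at ED16.5 and PND7. The log2 ratios were then -1.55 for Id1, -2.52 for Id2 and -1.26 for Id3. With all cells they were -1.46, -2.29 and -1.09. Cells were removed by these genes only, and the part of surface epithelium mRNA in the step was not tested. The 11 erythroid markers summed to 7880, 485 and 479 CPM, and the 12 stroma markers to 1176, 370 and 418 CPM; their part in the result was not tested. Of 15 dissociation stress genes measured in granulosa-like cells between ED16.5 and PND7, 2 were higher (Hspa1a and Hspa1b) and 2 lower (Atf3 and Dusp1). Over all genes the shares were 3.17% and 4.87%. In stroma-like cells 2 were higher (Hspa1a and Hspa1b) and 0 lower, against 2.43% and 2.03% of all genes. Between PND7 and PND14 the list gave 0 of 15 in either direction in both classes, against the shares of all genes given above for that step. In endothelium-like cells it gave 1 of 15 higher (Hspa1b), where 3.09% of all genes were higher. In stroma-like cells the erythroid markers summed to 6394, 451 and 417 CPM, the surface epithelium markers to 263, 72.1 and 30.3 CPM and the 14 smooth muscle or pericyte markers to 934, 1354 and 2016 CPM. In endothelium-like cells the erythroid markers summed to 38223, 496 and 3389 CPM and the stroma markers to 308, 769 and 1285 CPM. In smooth muscle or pericyte-like cells the stroma markers summed to 7821 CPM at PND7 and 5080 CPM at PND14. These were 64.2% and 58.7% of the level in stroma-like cells. The part of these markers in the results was not tested.

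**Figure D4:**
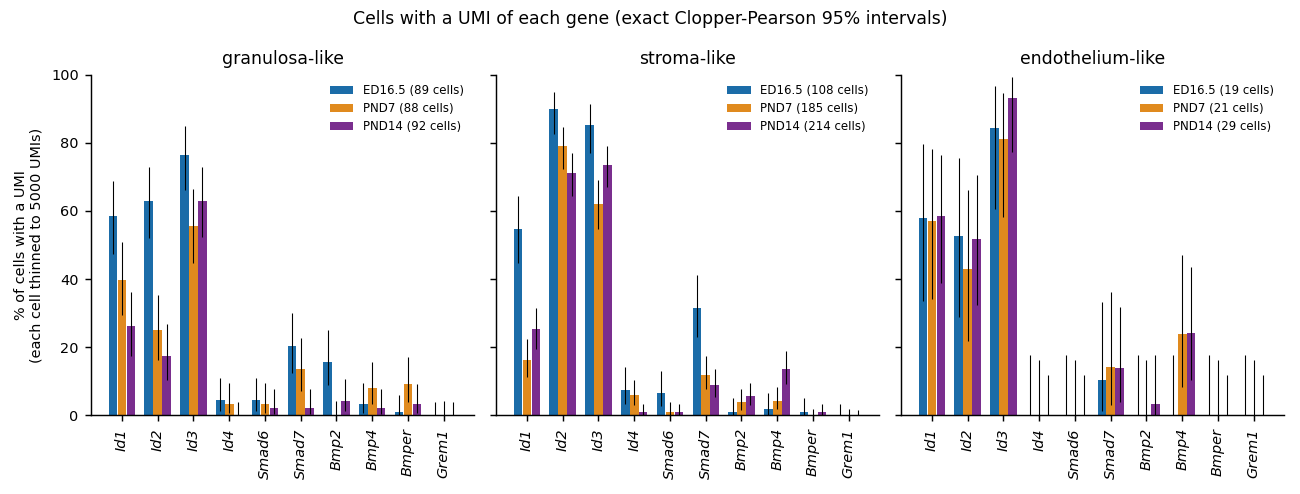
Percent of cells with at least 1 UMI of each gene (y axis) after thinning every cell to 5000 UMIs, in granulosa-like, stroma-like and endothelium-like cells of the 3 libraries (bars; legends give the number of cells), with exact Clopper-Pearson 95% intervals as lines. Id2 is found in 62.9%, 25.0% and 17.4% of granulosa-like cells and in 89.8%, 78.9% and 71.0% of stroma-like cells.

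Among single cells Id1, Id2 and Id3 were found together somewhat more often than the product of their shares in most pairs: 26 of 28 pairs of genes in a class and library lay above it and 2 below. No test was made, and the share of all gene pairs that lie above their product was not computed. The 28 pairs reuse the same 3 genes and the same cells, so they are not independent. In granulosa-like cells at ED16.5, 46 of 89 cells held both Id2 and Id3 after thinning, where the product of the shares gives 42.8, and 44 held both Id1 and Id3 against 39.7. For Id1 and Id2 the numbers were 38 and 32.7. Bmp2 and Id3 were found together in 13 cells against 10.7, and Bmp2 and Id1 in 6 against 8.18. In stroma-like cells at PND7, Id1 and Id3 were found together in 25 of 185 cells against 18.6, and Id1 and Id2 in 26 against 23.7. In those at PND14, Id1 and Id3 were found together in 47 of 214 cells against 39.6, and Id2 and Id3 in 121 against 112. In theca-like cells Id2 and Id3 lay below the product, in 8 of 41 cells against 9.54. In stroma-like cells at ED16.5, Id2 and Id3 were found together in 84 of 108 cells against 82.6, and Smad7 and Id2 in 33 against 30.5.

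The rest of the pathway was counted over a list of 50 genes, of which 49 were in the tables. In granulosa-like cells 30 were measured between ED16.5 and PND7; 4 were higher (among them Bmp3, Chrdl1 and Hey1), where 3.17% of all genes were, and 4 lower (Bmp7, Fst, Fstl1 and Msx1), where 4.87% were. The list's median log2 ratio was -0.37 against -0.12 over all genes. Follistatin, encoded by Fst, binds activins and some BMPs, and went from 882 CPM at ED16.5 to 435 at PND7 and 218 at PND14. Msx1, a homeobox gene known as a BMP target, had 141, 17 and 20 UMIs. Bmp3, a ligand of the family that can oppose the others, had 1, 56 and 45, and Bmp7, a ligand of the same receptors as BMP6, had 37, 9 and 5. Chrdl1, a secreted BMP antagonist, had 0, 22 and 3 UMIs, and Hey1, a target shared with Notch, 20, 122 and 18. Fstl1, a follistatin-like secreted protein, went from 169 to 35.7 and 31.4 CPM.

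Between PND7 and PND14 29 of the list were measured in granulosa-like cells; 1 was higher (Eng, the co-receptor endoglin, 6 to 55 UMIs) and 3 lower (among them Hey1 and Bambi, a decoy receptor, 155 to 50 UMIs), against 1.19% and 1.29% of all genes. Eng is abundant in endothelium-like cells (526 CPM at PND7), and the 13 endothelium markers summed to 97.9 CPM at PND7 and 309 CPM at PND14 in granulosa-like cells; their part in its step was not tested. In stroma-like cells 29 were measured between ED16.5 and PND7. The ligands Bmp6 (from 10 to 38 UMIs) and Bmp7 (from 6 to 49 UMIs) were the 2 higher, against 2.43% of all genes. Fst (from 52 to 5 UMIs) was the 1 lower, against 2.03%. Between PND7 and PND14 30 were measured there and 1 was higher (Bmp3, 3 to 67 UMIs), against 0.789% of all genes. Endothelium-like cells had 18 measured at the first step, with 3 higher (Nbl1, Acvr2b and Rgmb) and 1 lower (Hey1), against 4.9% and 1.79% of all genes. At the second step 21 were measured, with 1 higher (Smurf2) and 1 lower (Rgmb), against 3.09% and 1.02%. Receptor mRNAs for the ligands were present in granulosa-like cells at every age: Bmpr1a had 129, 97 and 86 UMIs, Bmpr2 112, 202 and 160, and Bmpr1b 9, 33 and 69. The signalling SMADs Smad1 (55, 38 and 34 UMIs) and Smad5 (166, 162 and 104) were present as well, while Smad9 had 2, 0 and 0. Of the 3 E proteins that ID proteins bind, 1 (Tcf12) was lower in granulosa-like cells at PND7, where 4.87% of all genes were. Its level was 289 CPM at ED16.5, 69.9 CPM at PND7 and 85.3 CPM at PND14. In granulosa-like cells from PND7 to PND14, and in stroma-like or endothelium-like cells at either step, 0 of the 3 passed 2-fold.

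The genes whose log2(CPM + 10) across the 17 pools of a class and library with at least 20 cells was most like that of each member were, by Pearson's r among 10733 genes, Csnk1g3 (0.91), Wasl (0.90) and Slc12a2 (0.90) for Id1, Shisa4 (0.95), Fam114a1 (0.95) and Cald1 (0.95) for Id2, and Tle1 (0.95), Epb41l2 (0.94) and Ttc28 (0.92) for Id3. For Id4 they were Cdh3 (0.89), Lurap1l (0.85) and Pnck (0.84), for Smad6 Tnnt1 (0.83), Ltbp1 (0.83) and Myrf (0.79), and for Smad7 Smad5 (0.91), Dctn1 (0.89) and Phc2 (0.87). Bmp2 was most like Coq10b (0.82), Tmem86a (0.81) and Eps8 (0.81), Bmp4 most like Heyl (0.85), Tmod3 (0.81) and Carmil1 (0.79), and Bmper most like Slc25a42 (0.94), Ago3 (0.92) and Rnf19b (0.92), the last from 49 UMIs. Grem1 had 2 UMIs over the pools, too few for a pattern, and its like genes are not given. Pools of one library share its depth and its animals, so these values describe the pools.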

How the data were processed

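Ovaries were digested with collagenase, filtered at 40 µm and loaded on the 10x Chromium 3′ version 2 system, and all libraries shared one HiSeq lane, per the labels. The authors deposited unnormalised UMI counts for every gene in every barcode, made with Cell Ranger 2.1.1 on GRCm38, per the submitters' processing notes; for annotation, strand setting and cell calling, nothing is given in the sources used here. Depth was 8743797 to 9065595 UMIs a library.

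Barcodes under 200 genes or over 20% mitochondrial UMIs were removed (3, 1 and 2, all for few genes). With scanpy 1.11.5, all cells were clustered together (2000 variable genes without those of the gene lists, 30 principal components, 15 neighbours, Leiden resolution 1.0), giving clusters 0 to 18. For each cluster, marker levels were compared with the other cells of the library that held most of it. It was named for the class, of 9, with the largest number of markers 2-fold higher. That number had to reach 3, and the 10 leading genes (minimum 30 UMIs) had to include 1 of these markers and no larger number of another class's. The naming rule was chosen after seeing the data. Clusters 6, 11, 12 and 13 stayed unnamed. Scrublet called 1, 3 and 3 doublets, which were kept. UMIs were summed per class and library and given as CPM with exact 95% intervals; no p-value was computed. The count of 3 UMIs is the limit that a count of 0 allows. Thinned shares use 5000 UMIs a cell. On simulated counts with counting error only, the ratio and its calls were tested before use. Changed genes at low levels and UMIs held by a few cells were not simulated. That test therefore does not cover low genes such as Bmper, Bmp4, Smad6 and Id4. The genes named are all 10 members, list genes past 2-fold (1 counted gene is not reported here by name) and the 3 genes most like each member except Grem1; receptors and signalling SMADs, and the unnamed clusters' values, were added after seeing the data. The members and the lists (BMP pathway, E proteins, dissociation stress) were chosen with earlier results of these data known. Alternatives were another scaling, cell weight, pseudocount, count minimum, cell placement, clustering, resolution, doublet removal and removal of cells with Upk3b or Upk1b UMIs.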

Additional observations from a re-analysis of the deposited data

Results flagged for a closer look

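Bmp2, Id1 and Bmp4 moved in opposite directions between the same pair of ages in different cell classes, each with counting intervals on opposite sides of 1. The difference between classes was not tested, since each age has 1 library. The ratio of Bmp2 from ED16.5 to PND7 was 8.12 in stroma-like cells and 0.0463 in granulosa-like cells. The ratio of Id1 from PND7 to PND14 was 2.01 in stroma-like cells, 1.44 in endothelium-like cells and 0.599 in granulosa-like cells. The ratio of Bmp4 from PND7 to PND14 was 2.46 in stroma-like cells and 0.437 in granulosa-like cells, where 3 cells held 22 of 45 UMIs at PND7 and 14 of 16 at PND14. Within granulosa cluster 9 Bmp4 was 24.5 CPM at PND7 and 34.1 CPM at PND14, and Id1 was 116 and 94.4 CPM, both with overlapping intervals, so the opposite direction of Bmp4 in granulosa-like cells, and the lower Id1 beyond counting error, were not seen within that cluster.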

How the results depend on the processing

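The count of members at least 2-fold apart kept within 1.5 times its value in granulosa-like cells between ED16.5 and PND7 under every alternative run for the lower direction (3 to 6 against 4), and for the higher direction under all but resolution 2.0, which gave 1 in place of 2. Counts that were 0 moved most. With every cell weighted equally, granulosa-like cells had 1 lower and stroma-like cells 1 higher from PND7 to PND14. With a pseudocount of 1, granulosa-like cells had 1 higher and 3 lower and stroma-like cells 1 higher and 1 lower at that step, while stroma-like cells had 2 higher and endothelium-like cells 1 lower from ED16.5 to PND7. Stroma-like cells had 2 higher from ED16.5 to PND7 and 1 higher from PND7 to PND14 with each cell placed by its own markers, 1 higher and 1 lower at those steps with each library clustered on its own, and 1 and 2 higher at resolution 2.0; the cause was not tested. Of 46 single log2 ratios, 10 moved beyond their interval with a pseudocount of 1, 6 with cells placed by their own markers, 4 with libraries clustered alone and 2 at resolution 2.0, and none with another scaling, cell weight, or without called doublets. At resolution 0.5 stroma-like cells could not be compared, since 1 cell each at PND7 and PND14 was left in a cluster of that name. The cells in a class changed with its definition. With libraries clustered alone, 26 stroma-like cells were left at PND14 in place of 214. With cells placed by their own markers, stroma-like cells numbered 53 at ED16.5 and 288 at PND7 in place of 108 and 185. Granulosa-like cells at ED16.5 then numbered 50 in place of 89. Without thinning 50 of 90 shares of cells moved beyond their interval. No paired analysis was possible because each age has 1 library. Genes under about 10 UMIs a class, among them Bmper, Grem1, Smad6 and Id4, are limited by depth.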
